A study of Sus scrofa with 24 samples.

Results

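The kidney and renal transport genes described here were 10 named genes of the nephron: NPHS1, WT1, LRP2, CUBN, MIOX, SLC12A1, UMOD, CALB1, SCNN1G and AQP2. They were found by their symbols in the platform's annotation, which gave 17 probes of 8 genes among 43749 probes and 11906 gene symbols. LRP2 and CUBN had 0 probes under their symbols and were not analysed here. CALB1 and MIOX were selected on their ratios in male IS21SE pools, and SCNN1G on its ratio in female IS21SE pools, in earlier work on these data. Those ratios are therefore given as a description with no test.

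RNA came from pools of 3 whole pig embryos at day 30 of gestation, carried by primiparous sows, that is, sows that had farrowed a single litter. The sows had been under a suckling and mating strategy, IS21SE or IS21FE, letters that the labels do not spell out (3 sows each), or under the control treatment (6 sows). Each two-colour array set a pool of male or female embryos of a strategy against a control pool of the same sex, so that every ratio already contains a control. The 4 groups were male IS21SE, male IS21FE, female IS21SE and female IS21FE, each against control, with 3 replicates a group and 2 arrays with exchanged dyes a replicate. The labels say that a pool holds embryos of 1 sow, so a replicate stands for a sow of each treatment. With 3 sows a strategy, the 3 male and 3 female pools of a strategy cannot all come from different sows. The labels do not say whether a male and a female pool with the same number share a sow. The tests between sexes below take male and female pools as independent.

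Kidney function in an embryo of this stage is carried by the mesonephros, a transient organ that is large in the pig, while the permanent kidney, the metanephros, is still forming. Both build nephrons in which a glomerulus filters blood. In the permanent kidney the proximal tubule takes back proteins and solutes. Its loop and distal tubule reclaim salt and calcium, and its collecting duct adjusts sodium and water. The genes of the set mark these segments in turn. Several are also expressed outside the kidney in mammals: WT1 in gonad and mesothelium, and CALB1 in neurons. The table holds ratios and no signal levels, so whether the RNA came from kidney could not be checked against levels. In whole embryos, fewer cells of a type and less RNA per cell cannot be told apart.

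All values are log2 ratios. The deposited columns do not say which dye is on top of the ratio. Ratios of control-in-Cy5 arrays were multiplied by -1, which makes every ratio strategy over control if columns hold Cy5 over Cy3. A ratio treated in this way is called turned, and a ratio without this step is called as deposited. Under the opposite dye order the signs of all turned ratios below change together, while values as deposited stay as printed. Whether female columns needed the step was less clear than for male columns. Across 18481 probes measured on every array, the 2 arrays of a replicate correlated below 0 as deposited in 6 of 6 male replicates (Spearman's rho from -0.298 to -0.003) and in 1 of 6 female replicates (from -0.038 to 0.324). SDs of the arrays ran from 0.937 to 1.33 in males and from 0.62 to 0.89 in females. From 31722 to 39435 probes were measured per array, and precision is limited by how many arrays there are. A group of 3 female arrays with the strategy's RNA in Cy5 (IS21FE replicates 1 and 3 and IS21SE replicate 2) resembled each other (rho from 0.559 to 0.614, against at most 0.484 for any other pair of one sex and orientation), and female means without them are given beside those with them where they differ by over 1.5 times.

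The turned ratio of the proximal tubule gene MIOX was positive in male pools of both strategies and near 0 in female pools when the female arrays of both orientations were averaged. The turned ratio of the distal tubule gene CALB1 was negative in male IS21SE pools. None of the members with a test passed an adjusted p of 0.05 on turned ratios in limma's moderated test over all genes. In male IS21SE pools 0 of 6 tested members passed, where 0% of 11514 genes did, and in male IS21FE pools 0 of 8 passed, where 0.0263% of 11422 genes did. In female IS21SE pools 0 of 7 passed and in female IS21FE pools 0 of 8, where 0% of 11620 and 0% of 11691 genes did. At an unadjusted p under 0.05 there were 2 members in male IS21FE pools, MIOX and NPHS1, where 7.57% of all genes were under it. There were 0 tested members in male IS21SE, female IS21SE and female IS21FE pools, where 11.1%, 4.06% and 7.13% of all genes were. The fit to single arrays with a dye term called 0 tested members in each group, where it called 0.0347% of genes in male IS21SE, 0% in male IS21FE, 0% in female IS21SE and 0.00855% in female IS21FE pools.

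**Figure D1:**
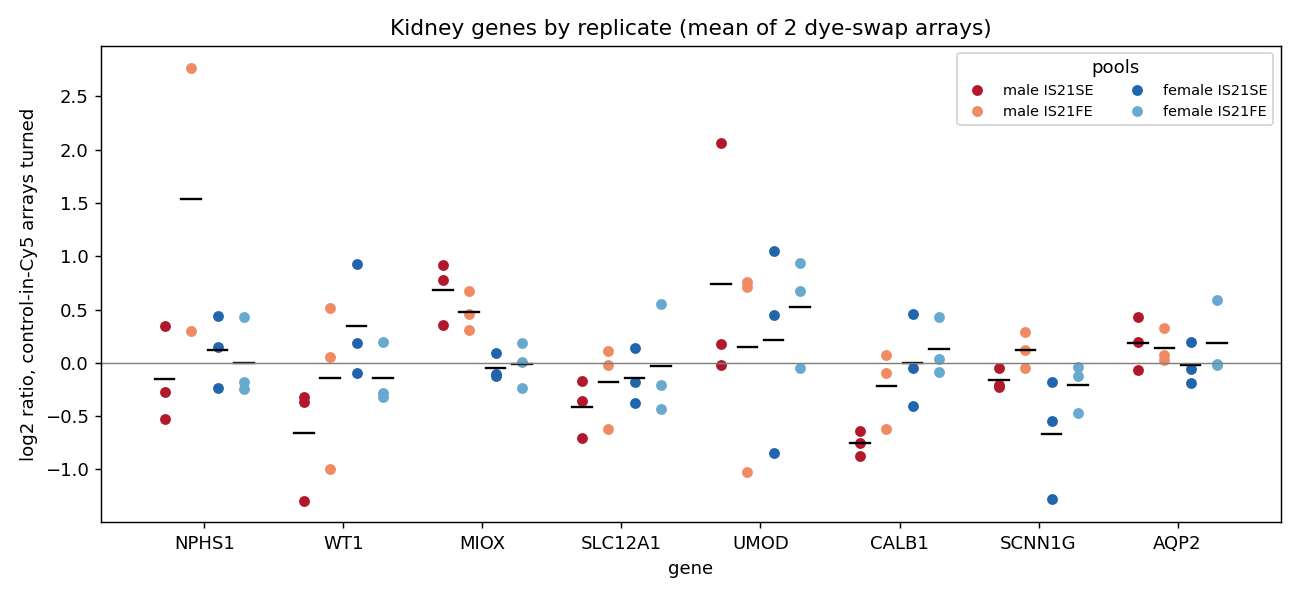
Turned log2 ratio (vertical axis) of each measured kidney gene (horizontal axis) in the 4 groups; each point is a replicate, the mean of its measured arrays, and black lines are group means. MIOX lies above 0 in all 6 male replicates and CALB1 below 0 in all 3 male IS21SE replicates.

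The glomerulus was represented by NPHS1, which encodes nephrin of the podocyte's slit diaphragm, and by WT1, a transcription factor needed to form the kidney and to maintain podocytes. NPHS1 was the member with the fewest values: its single probe was measured on 7 of 12 male and 9 of 12 female arrays. In male IS21SE pools its turned ratios were -0.28, -0.53 and 0.35. In male IS21FE pools they were 2.77 and 0.30, each from 1 array, and replicate 2 had no value. The male IS21FE ratio of 1.54 ± 1.75 (SD, n = 2) had a limma adjusted p of 0.464. Female NPHS1 ratios ran from -0.23 to 0.44 in IS21SE pools and from -0.24 to 0.43 in IS21FE pools, so both groups spanned 0. Without the 3 arrays that resembled each other the female means were 0.29 in IS21SE and 0.06 in IS21FE pools, against 0.12 and 0.002 with them.

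WT1 had 2 probes. Its turned ratios were -0.37, -1.29 and -0.32 in male IS21SE pools and -0.99, 0.06 and 0.51 in male IS21FE pools. All 3 male IS21SE replicates were negative, as were 17.6% of genes in that group, and the mean of -0.66 ± 0.55 (SD, n = 3) had a limma adjusted p of 0.461. The orientations disagreed: with the strategy's RNA in Cy5 the male IS21SE arrays gave -2.42, -1.37 and -0.71, and with the control RNA in Cy5, after the turn, they gave 1.68, 0.06 and 0.07. The probes disagreed too, with means of -1.65 and 0.33 in male IS21SE pools. In female pools WT1 averaged 0.34 ± 0.53 in IS21SE and -0.14 ± 0.29 in IS21FE (SD, n = 3 each), and both ranges crossed 0. Without the 3 arrays that resembled each other these means were 0.05 and -0.01.

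MIOX, which encodes myo-inositol oxygenase, the enzyme that opens the inositol ring in the proximal tubule, was the best covered member, with 6 probes measured on all 24 arrays. In male IS21SE pools its turned ratios were 0.77, 0.92 and 0.36. In male IS21FE pools they were 0.30, 0.68 and 0.46. In female IS21SE pools they were -0.10, -0.12 and 0.09, and in female IS21FE pools 0.01, 0.19 and -0.23. On turned ratios no male replicate overlapped the female replicates, most of which average 2 arrays of opposite sign. As deposited the sexes overlapped, with 0.18 in a male and 0.17 in a female IS21FE replicate. The male IS21SE values were known when the gene was chosen, and how many other genes separate in this way was not counted. Over all genes, 9.81% were positive in 3 of 3 male IS21FE replicates.

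The means were 0.68 ± 0.29 in male IS21SE, 0.48 ± 0.19 in male IS21FE, -0.05 ± 0.12 in female IS21SE and -0.01 ± 0.21 in female IS21FE pools (SD, n = 3 each). In male IS21FE pools the 95% interval of the limma fit was 0.18 to 0.78, with an unadjusted p of 0.00506 and an adjusted p of 0.394. The male minus female difference in IS21FE was 0.49 (95% interval 0.07 to 0.92, limma adjusted p = 0.756). The same difference in IS21SE was 0.73, and it has no test because the male value was known when the gene was chosen.

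In male pools the MIOX ratios had the same sign in both dye orientations and on nearly all probe values. For male IS21SE pools this is a description, because the gene was chosen on its ratio there. The 6 probes read the same 3 replicates a group, so their values are not independent. Of the 36 probe values in male IS21SE pools 35 were positive, and of the 36 in male IS21FE pools 36 were. Arrays with the strategy's RNA in Cy5 gave 0.78, 1.045 and 0.49 in male IS21SE and 0.37, 0.86 and 0.49 in male IS21FE pools. Control-in-Cy5 arrays, after the turn, gave 0.76, 0.79 and 0.22 in male IS21SE and 0.24, 0.50 and 0.43 in male IS21FE pools. MIOX was thus positive on 12 of 12 male arrays, as were 0.109% of the 8242 genes measured on all male arrays, a count that includes the arrays known when the gene was chosen. The 6 probes had means from 0.60 to 0.79 in male IS21SE and from 0.37 to 0.67 in male IS21FE pools.

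**Figure D2:**
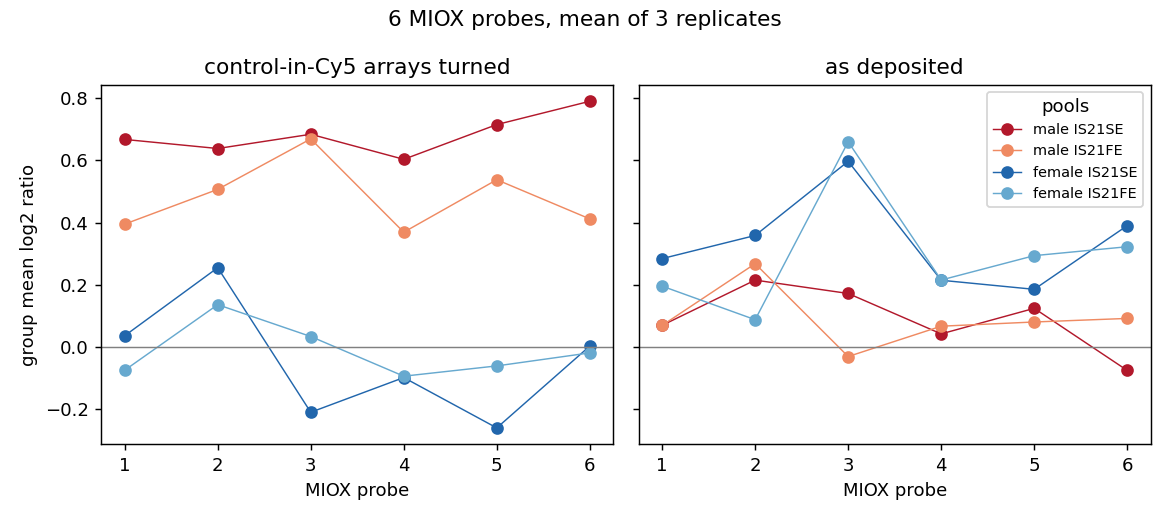
Group mean log2 ratio (vertical axis, mean of 3 replicates) of the 6 MIOX probes (horizontal axis) with control-in-Cy5 arrays turned (left) and as deposited (right); each line is a group. Turned, all 6 probes lie at or above 0.37 in both male groups and around 0 in both female groups, while as deposited all 6 probes are above 0 in both female groups.

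In female pools MIOX took opposite turned signs in the 2 orientations. Arrays with the strategy's RNA in Cy5 gave 0.16, 0.17 and 0.55 in female IS21SE and 0.44, 0.36 and 0.05 in female IS21FE pools. Control-in-Cy5 arrays, after the turn, gave -0.36, -0.42 and -0.37 in female IS21SE and -0.42, 0.02 and -0.52 in female IS21FE pools. The female means near 0 thus average opposite readings. Without the 3 arrays that resembled each other, which all carry the strategy's RNA in Cy5, the turned means were -0.14 in female IS21SE and -0.25 in female IS21FE pools. As deposited, 61 of 72 female probe values were positive, against 37 of 72 male ones, and the female means were 0.34 ± 0.11 in IS21SE and 0.30 ± 0.13 in IS21FE pools (SD, n = 3 each). All 6 female replicates were positive as deposited, where 19.2% of genes were positive in 3 of 3 IS21SE and 20.6% in 3 of 3 IS21FE replicates. As deposited these means had limma adjusted p of 0.0685 and 0.0779, and without the 3 arrays that resembled each other the means were 0.38 and 0.37 (adjusted p = 0.0519 and 0.0358). Without those arrays 370 of 11379 genes passed in female IS21SE and 774 of 10993 in female IS21FE pools.

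SLC12A1, the sodium-potassium-chloride cotransporter of the thick ascending limb, had 3 probes. Its turned ratios were -0.70, -0.36 and -0.17 in male IS21SE pools, all negative, and -0.62, 0.11 and -0.02 in male IS21FE pools. In female IS21SE pools they were -0.38, 0.13 and -0.18, and in female IS21FE pools -0.20, -0.43 and 0.55. The male IS21SE mean of -0.41 ± 0.27 (SD, n = 3) had a 95% interval of -0.88 to 0.06 and a limma adjusted p of 0.502. All 6 male IS21SE arrays were negative after the turn, from -0.925 to -0.10.

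In female pools SLC12A1, like MIOX, changed its turned sign with the dyes. With the strategy's RNA in Cy5 it was negative on 6 of 6 female arrays, from -1.504 to -0.18. With the control RNA in Cy5, after the turn, it was positive on 5 of 6, from -0.01 to 1.29. The turned means were -0.14 in female IS21SE and -0.03 in female IS21FE pools, and 0.02 and 0.28 without the 3 arrays that resembled each other. As deposited, 31 of 34 female probe values were negative, with means of -0.51 ± 0.09 in IS21SE and -0.67 ± 0.44 in IS21FE pools (SD, n = 3 each). In male pools the means as deposited were 0.18 ± 0.09 in IS21SE and 0.12 ± 0.11 in IS21FE (SD, n = 3 each). As deposited, SLC12A1 was positive in 3 of 3 replicates of both male groups, as were 13.4% of genes in IS21SE and 14.3% in IS21FE, and negative in 3 of 3 replicates of both female groups, as were 23.2% in IS21SE and 21.2% in IS21FE.

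UMOD, which encodes uromodulin, the main urinary protein made by the thick ascending limb, varied widely between replicates. Its single probe was measured on all 24 arrays. The turned ratios were 2.07, 0.17 and -0.02 in male IS21SE pools, 0.76, -1.03 and 0.71 in male IS21FE pools, -0.85, 1.05 and 0.45 in female IS21SE pools and 0.67, 0.93 and -0.05 in female IS21FE pools. Every group held replicates on both sides of 0, and the SDs ran from 0.51 to 1.15. The highest male IS21SE value rests on 1 array at 3.69, whose dye-swapped partner read 0.45. Without the 3 arrays that resembled each other the female IS21SE mean was 0.42, against 0.22 with them. No group passed, with limma adjusted p from 0.629 to 0.999.

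CALB1, which encodes calbindin, the calcium buffer of the distal tubule and of some neurons, had 1 probe, measured on all 24 arrays. In male IS21SE pools the turned ratios were -0.88, -0.64 and -0.75, and in male IS21FE pools -0.62, 0.08 and -0.10. In female IS21SE pools they were -0.05, 0.46 and -0.41, and in female IS21FE pools -0.09, 0.03 and 0.43. The male IS21SE replicates, on which the gene was chosen, lay below the other replicates, though narrowly: -0.64 against -0.62 in a male IS21FE replicate. The male IS21SE mean was -0.76 ± 0.12 (SD, n = 3), and the 6 arrays ran from -1.01 to -0.59, with both orientations on the same side of 0. The mean in male IS21FE pools was -0.22 ± 0.36 (SD, n = 3; limma adjusted p = 0.892).

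CALB1 repeated the female pattern with the dyes. With the strategy's RNA in Cy5 its turned ratios were -0.47, -0.19 and -1.165 in female IS21SE and -0.28, -0.63 and 0.03 in female IS21FE pools. With the control RNA in Cy5 they were 0.38, 1.11 and 0.35 in female IS21SE and 0.11, 0.69 and 0.83 in female IS21FE pools. The turned means were 0.002 in female IS21SE and 0.13 in female IS21FE pools, and 0.22 and 0.32 without the 3 arrays that resembled each other. As deposited, CALB1 was negative on 11 of 12 female arrays, where 6.2% of 6870 genes were negative on at least 11, with means of -0.61 ± 0.17 in IS21SE and -0.42 ± 0.23 in IS21FE pools (SD, n = 3 each). In male IS21FE pools it was negative in 3 of 3 replicates as deposited, as were 22.8% of genes.

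**Figure D3:**
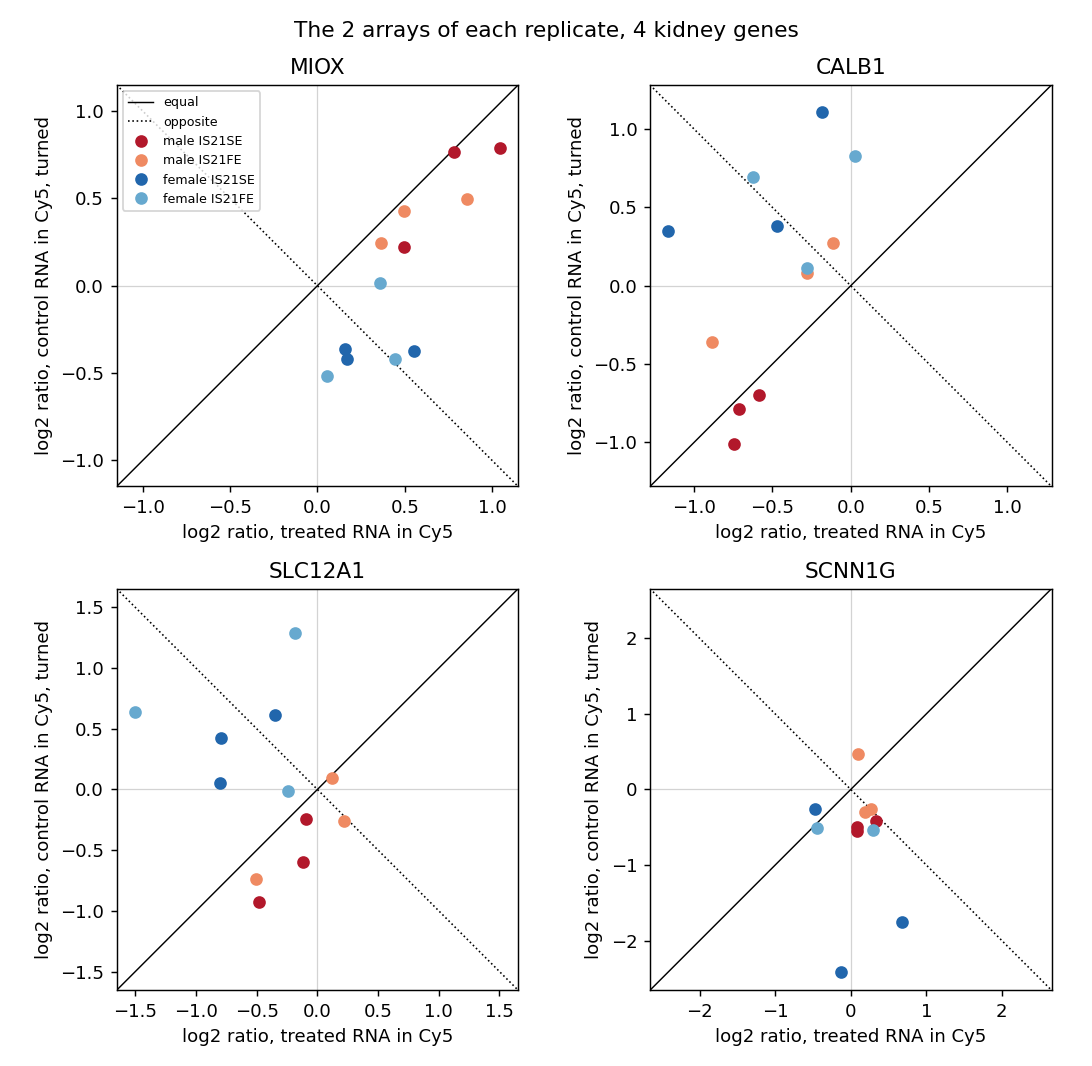
The 2 arrays of each replicate for 4 kidney genes: the horizontal axis is the log2 ratio with the strategy's RNA in Cy5, the vertical axis the turned log2 ratio with the control RNA in Cy5, and each point is a replicate measured on both arrays; the solid line marks equal and the dotted line opposite readings. For MIOX and CALB1, all 3 male IS21SE replicates have both arrays on the same side of 0, and in 5 of 6 female replicates of MIOX, of CALB1 and of SLC12A1 the arrays have opposite signs.

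Taking the female columns as deposited thus gave MIOX, CALB1 and SLC12A1 the signs that the turned columns gave in male IS21SE pools: positive, negative and negative. SCNN1G and UMOD went the other way in both female groups. As deposited SCNN1G had 0.77 in IS21SE and 0.05 in IS21FE pools, against -0.16 turned in male IS21SE pools. UMOD had -0.25 and -0.11, against 0.74. WT1 (0.40 against -0.66) went the other way in female IS21SE pools, as did NPHS1 and AQP2 in female IS21FE pools. Without the 3 arrays that resembled each other SCNN1G had 0.46 in IS21FE pools as deposited, and UMOD had -0.60 in IS21SE and -0.32 in IS21FE pools. WT1 then had 0.14 in IS21SE pools and 0.08 in IS21FE pools, against -0.13 in IS21FE with them. The match of signs for MIOX, CALB1 and SLC12A1 assumes that columns hold Cy5 over Cy3. How many of all genes match in this way was not counted. MIOX and CALB1 were chosen with their male IS21SE ratios known. In the fit with all columns as deposited, 1 of 7 tested members passed in female IS21SE pools (CALB1, limma adjusted p = 0.0435), where 1.02% of 11620 genes did. In female IS21FE pools 1 of 8 passed (SLC12A1, limma adjusted p = 0.0403), where 2.64% of 11691 genes did. In male pools 0 tested members passed as deposited, where 0% of genes did in IS21SE and 0.0613% in IS21FE. When female columns were taken as deposited and male columns turned, 0 tested members passed in either female group, and CALB1 in female IS21SE and SLC12A1 in female IS21FE pools had limma adjusted p of 0.139 and 0.151. Without the 3 arrays that resembled each other, in the fit with all columns as deposited, they had -0.76 (limma adjusted p = 0.0363) and -0.78 (0.0482). In that fit 370 of 11379 genes passed in female IS21SE and 774 of 10993 in female IS21FE pools.

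A term for the dye was also fitted in each sex on single arrays, a fit chosen after the data were seen. It passed for 3 of 8 members in females, where it passed for 10.4% of 11760 genes. These were MIOX (0.32, limma adjusted p = 0.0164), CALB1 (-0.51, 0.0167) and SLC12A1 (-0.57, 0.0226). In males it passed for 0 of 8 members and for 0.0172% of 11656 genes, and the terms of these genes were 0.09, -0.07 and 0.15. In that fit the dye-swap partners count almost as separate samples (the estimated correlation between them over both sexes was 0.0738). A response of a probe to the dye and columns already turned by the authors cannot be told apart from female arrays alone.

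SCNN1G, the gamma subunit of the epithelial sodium channel, and AQP2, the water channel that vasopressin moves to the cell surface, stood for the collecting duct. The 2 probes of SCNN1G were measured on 17 of 24 possible probe values in males and 20 of 24 in females. The turned ratios were -0.21, -0.04 and -0.23 in male IS21SE pools, -0.05, 0.12 and 0.29 in male IS21FE pools, -1.27, -0.18 and -0.54 in female IS21SE pools and -0.04, -0.12 and -0.47 in female IS21FE pools. The 3 replicates of female IS21FE pools were negative, as were 18% of genes in that group, with a mean of -0.21, or -0.32 without the arrays that resembled each other. The 3 replicates of male IS21SE pools were negative too, as were 17.6% of genes. The ratio in female IS21SE pools chose the gene.

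The negative mean of SCNN1G in female IS21SE pools, -0.67 ± 0.56 (SD, n = 3), came mainly from 1 orientation and from 1 of its probes. Arrays with the strategy's RNA in Cy5 gave -0.13, -0.48 and 0.67, and arrays with the control RNA in Cy5, after the turn, gave -2.42, -0.26 and -1.76. Probe 1 averaged -0.99 and probe 2 -0.34. In male IS21SE pools the orientations also took opposite signs, with 0.08, 0.33 and 0.09 against -0.50, -0.42 and -0.54. The limma adjusted p was 0.783 in male IS21SE, 0.965 in male IS21FE and 0.8905 in female IS21FE pools.

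AQP2 had 1 probe. Its turned ratios were -0.07, 0.43 and 0.20 in male IS21SE pools, 0.32, 0.08 and 0.03 in male IS21FE pools, 0.20, -0.19 and -0.06 in female IS21SE pools and -0.01, -0.02 and 0.59 in female IS21FE pools. The 3 male IS21FE replicates were positive, as were 9.81% of genes in that group, with a mean of 0.14 ± 0.16 (SD, n = 3). Without the 3 arrays that resembled each other the female means were -0.005 in IS21SE and 0.36 in IS21FE pools, against -0.02 and 0.19 with them. The 95% intervals were -0.15 to 0.52 in male IS21SE and -0.35 to 0.32 in female IS21SE pools, and limma adjusted p ran from 0.682 to 0.999 over the 4 groups.

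Differences between strategies and sexes were tested in the same fit. Between strategies 0 of 6 tested members differed in males, where 0.00891% of 11224 genes did, and 0 of 7 in females, where 0% of 11498 did. Between sexes 0 of 5 tested members differed in IS21SE, where 0% of 11339 genes did, and 0 of 8 in IS21FE, where 0% of 11304 did. NPHS1 had the largest tested difference between strategies in males, -1.69 for IS21SE minus IS21FE (limma adjusted p = 0.536), with 2 measured IS21FE replicates. WT1 had the largest tested difference between sexes in IS21SE, -1.002 for male minus female (limma adjusted p = 0.672).

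Over the 12 replicates, turned ratios of members moved together in some pairs. CALB1 and SLC12A1 had a Pearson correlation of 0.75, CALB1 and WT1 0.66, and CALB1 and MIOX -0.66. MIOX and SCNN1G had 0.53, and WT1 and AQP2 -0.64. UMOD and WT1 had 0.01. The points share arrays, groups and sexes, so these values describe the 12 replicates and carry no p.

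The other genes of the nephron were taken from 5 lists by segment. None of their tested genes passed a limma adjusted p of 0.05 in any of the 4 groups on turned ratios. Among 22 measured genes of nephron progenitors and kidney patterning, 11 were positive and 11 negative in male IS21SE pools, with a median of 0.03, against -0.01 over all genes. SIX2, which keeps nephron progenitors undifferentiated, had 1.73 ± 0.76 in male IS21SE, 0.50 ± 0.81 in male IS21FE and -0.85 ± 0.11 in female IS21FE pools (SD, n = 3 each), with limma adjusted p of 0.219, 0.802 and 0.629. RET, the receptor of the ureteric bud, had -1.27 ± 1.29 in male IS21SE pools (SD, n = 3; limma adjusted p = 0.37). As deposited RET had 1.205 there, and SIX2 had -0.70 in male IS21SE, 0.48 in male IS21FE and -0.75 in female IS21FE pools. A mean of like size turned and as deposited, as for RET, comes mainly from arrays of 1 orientation.

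Of 18 further proximal tubule genes 8 were positive and 10 negative in male IS21SE pools, with a median of -0.01, and 6 were positive and 12 negative in male IS21FE pools, with a median of -0.10. MIOX was therefore not accompanied by a shift of the segment's median to the positive side. SLC22A6, an organic anion transporter, had 1.23 ± 0.92 in male IS21SE pools (SD, n = 3; limma adjusted p = 0.247). HNF4A, a transcription factor of proximal tubule and liver, lay on the other side, with -1.125 ± 0.74 in male IS21SE pools (SD, n = 3; limma adjusted p = 0.39) and -1.34 ± 1.58 in male IS21FE pools (SD, n = 2; limma adjusted p = 0.553). In female IS21SE pools HNF4A had -0.88 ± 0.40 and SLC13A3, a dicarboxylate transporter gene, -0.92 ± 1.08 (SD, n = 3 each; limma adjusted p = 0.9989 for both). As deposited HNF4A had 0.33 in male IS21SE, -2.07 in male IS21FE and 0.95 in female IS21SE pools. SLC13A3 had 0.58 as deposited in female IS21SE pools. SLC3A1, a subunit of the cystine transporter, had -0.43 ± 0.32 in male IS21FE and -0.55 ± 0.22 in female IS21FE pools (SD, n = 3 each), with limma adjusted p of 0.523 and 0.501. As deposited SLC3A1 had -0.26 and -0.48.

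Of 12 further genes of the loop and distal tubule 5 were positive and 7 negative in male IS21SE pools, with a median of -0.13. PVALB, a calcium buffer of the distal tubule, had 0.70 ± 0.45 in male IS21SE pools (SD, n = 3; limma adjusted p = 0.409), and CLDN10, a claudin of the thick ascending limb, had -0.24 ± 0.23 (SD, n = 3; limma adjusted p = 0.5025). In male IS21FE pools CLDN14, a claudin of the same segment, had 1.55 ± 1.51 and NR3C2, the mineralocorticoid receptor, -1.56 ± 1.37 (SD, n = 3 each; limma adjusted p = 0.436 and 0.464). As deposited CLDN14 and NR3C2 had -1.57 and -1.75, so each turned mean came mainly from arrays of 1 orientation. In the podocyte and glomerulus list CD2AP, which anchors nephrin, had -0.49 ± 0.06 and the phosphatase gene PTPRO -0.63 ± 0.28 in male IS21SE pools (SD, n = 3 each; limma adjusted p = 0.318 and 0.444), while 9 of its 13 tested genes were positive. In the collecting duct list KRT8, a keratin of simple epithelia, had 0.35 ± 0.03 in male IS21SE pools (SD, n = 3; limma adjusted p = 0.329). The water channel gene AQP3 had a mean of 0.03 in male IS21FE pools, and it had -0.30 ± 0.33 in male IS21SE, -0.36 ± 0.23 in female IS21SE and -0.38 ± 0.27 in female IS21FE pools (SD, n = 3 each), with limma adjusted p from 0.529 to 0.999. SCNN1A, the alpha subunit of the sodium channel, had 0.62 ± 0.51 in female IS21FE pools (SD, n = 3; limma adjusted p = 0.638). As deposited SCNN1A had -0.62, so this mean too came mainly from arrays of 1 orientation.

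**Figure D4:**
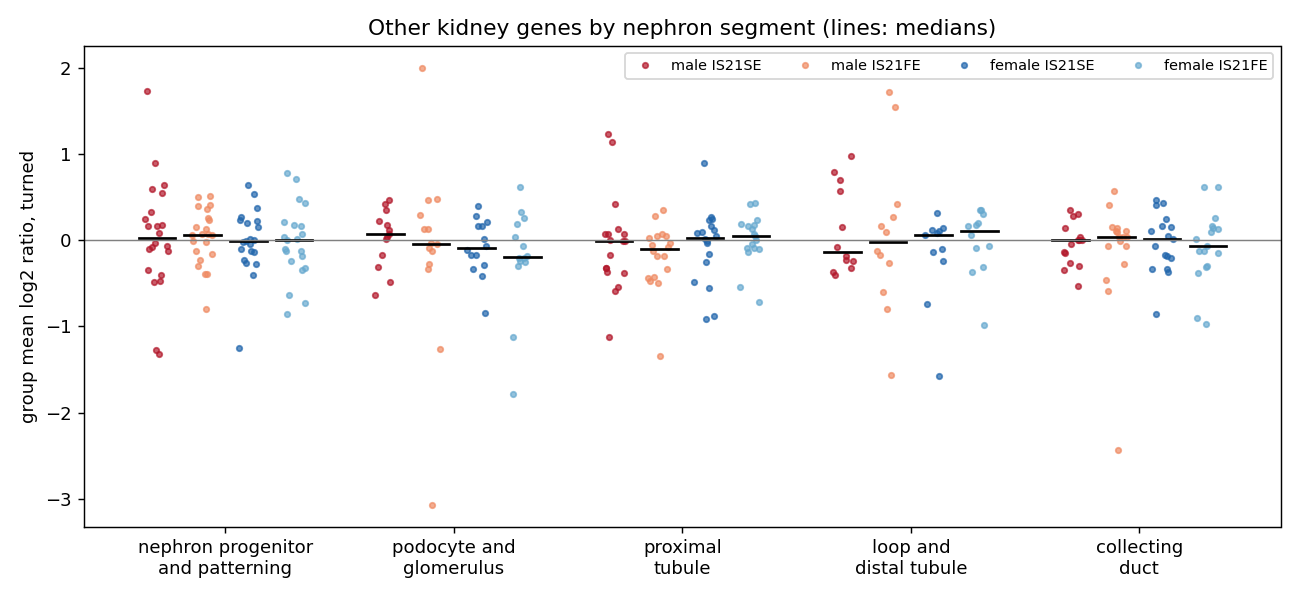
Group mean turned log2 ratio (vertical axis) of the other nephron genes measured in at least 2 replicates, by segment list (horizontal axis) and group; each point is a gene and black lines are medians. The medians lie between -0.19 and 0.11, and single genes spread to both sides of 0 in every list.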

How the data were processed

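The deposited table holds a log2 ratio of the 2 channels for each probe and array. The log base was taken from the range of values (-9.34 to 9.85), and the authors' dye order, background correction, normalization and filter were not stated in the sources used here. Per the labels, 200 ng of RNA was labelled with Cy3 and Cy5. Blank cells made up 16.6% of the table. Of 43749 probes 18109 had 1 symbol and 0 several in the platform's annotation. Symbols were updated through an accession for 124 probes and through a synonym for 224.

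Control-in-Cy5 arrays were multiplied by -1, the arrays of a replicate averaged (a single measured array was kept), and the probes of a gene averaged. Limma 3.58.1 (R 4.3.3) fitted 4 group means to 12 replicates, with eBayes, at least 2 measured replicates a group and Benjamini-Hochberg adjustment over all genes tested, at a threshold of 0.05. The script was tested on simulated data with independent replicate ratios, without dye effects or shared sows, so that test does not cover these features. The p-values measure the spread between pools.

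Named genes are the members and, per list, the 2 other genes with the smallest p in a group, of which the text gives both for male IS21SE kidney lists and some for the other groups. Members, lists and tests were chosen with earlier results of these data known.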

Additional observations from a re-analysis of the deposited data

Results flagged for a closer look

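As deposited, SLC12A1 was positive in 3 of 3 male and negative in 3 of 3 female replicates of each strategy. The male minus female difference was 0.687 in IS21SE (limma adjusted p = 0.228) and 0.791 in IS21FE (adjusted p = 0.17), so it did not pass. On turned ratios the replicates of SLC12A1 overlapped between the sexes in both strategies.

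As deposited, CALB1 was positive in 3 of 3 male IS21SE replicates (0.13, 0.05 and 0.04) and negative in 3 of 3 female IS21SE replicates, a difference of 0.684, and negative in 3 of 3 male IS21FE replicates, a difference of 0.285. These differences were not tested, because the gene was chosen with its male IS21SE ratio known.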

How the results depend on the processing

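On turned ratios limma called 3 genes in male IS21FE pools (GAS8 and 2 locus identifiers), 1 for male IS21SE minus IS21FE and 0 in the other 6 comparisons, where 294 to 1282 genes had an unadjusted p under 0.05. None of these genes is a member. With no turn the counts were 309 in female IS21FE, 119 in female IS21SE, 7 in male IS21FE and 0 for male IS21SE minus IS21FE, and CALB1 in female IS21SE pools became -0.61 with an adjusted p of 0.0435, against 0.002 turned. With female columns as deposited and male ones turned, 9 genes were called in female IS21FE and 0 for male IS21SE minus IS21FE. The count in male IS21FE was 10 with the strategy's RNA in Cy5 alone, 7 for single probes, 1 with the control RNA in Cy5 alone, quantile normalization, array weights, 3 measured replicates or medians over probes, and 0 with groups fitted apart, both arrays measured, single arrays with a dye term or without the 3 arrays that resembled each other. Of 18 same-number pairs 2 correlated above 0.1 and 10 correlated best with their own number, each among 3 candidates. These values and the labels do not settle whether the numbers pair samples, and the main fit took no pairing. The replicate block gave 0 in male IS21FE, 1 in male IS21SE and 1 for male minus female IS21SE. Male IS21SE had 5 with the strategy's RNA in Cy5 alone, 1 for probes and 4 for single arrays with a dye term. For male IS21SE minus IS21FE the strategy's RNA in Cy5 alone gave 4, and groups fitted apart, both arrays, probes, the dye term and leaving out the 3 arrays gave 0. Female IS21FE had 1 with array weights or the dye term, and male minus female IS21FE 1 with the dye term or the control RNA in Cy5 alone. Leaving out 1 replicate gave 2 to 25 genes in male IS21FE (25 without replicate 1, 7 without replicate 3), 0 to 3 in male IS21SE (3 without replicate 1), 0 to 5 for male minus female IS21FE, 0 to 3 for male IS21SE minus IS21FE, and 0 in both female groups.

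Of 32 member ratios 17 changed sign with no turn and 11 with female columns as deposited. With the strategy's RNA in Cy5 alone 9 of 31 changed sign, and with control-in-Cy5 arrays alone 8 of 31. One scale for all arrays, groups fitted apart, medians over probes and the replicate block changed 0 of 32. No signal over background was at hand, so dim probes could not be set apart.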

Other observations

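Markers of other sources of these transcripts were set beside the kidney genes. None of the tested genes of 3 lists passed a limma adjusted p of 0.05 in any group on turned ratios. As deposited, 3 of 9 yolk sac and liver genes passed in female IS21FE pools, all negative (7 of 9 negative, median -0.30), as did 1 of 9 neuron genes there and 1 of 10 gonad and mesothelium genes in female IS21SE pools, both negative. Over all genes 2.64% passed in female IS21FE and 1.02% in female IS21SE pools. Of 10 genes of gonad and mesothelium, where WT1 is also expressed, 6 were positive in male IS21SE pools (median 0.05) and 7 in male IS21FE pools (0.32), against 3 in female IS21SE (-0.23) and 4 in female IS21FE pools (-0.33). Over all genes 48.8%, 46.9%, 52.45% and 50.4% were positive in these groups. The 4 negative genes of the list in male IS21SE pools were CYP17A1 (-0.45), INHBA (-0.26), INHA (-0.20) and SOX9 (-0.01). INSL3, a hormone of Leydig cells, had 1.51 ± 0.88 in male IS21SE pools (SD, n = 3; limma adjusted p = 0.308), and AMH, the hormone that makes the Müllerian duct regress, had 0.37 ± 0.26 (SD, n = 3; limma adjusted p = 0.486). Of 9 neuron genes 6 were positive in male IS21SE pools, where CALB1 was negative, with a median of 0.03. Their part in the member ratios was not tested. Of 9 genes of yolk sac and liver 6 were positive in male IS21SE pools, with a median of 0.14, against -0.01 over all genes.

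Among 8984 named genes measured in all 12 replicates, the turned ratios most like those of CALB1 were UBTD2 (Pearson's r 0.93), PLCB1 (0.90) and RILPL2 (0.89). Those most like MIOX were ARHGEF1 (0.90), NBEAL2 (0.85) and MORN5 (0.85), and those most like SLC12A1 were DYNC2LI1 (0.90), NEDD9 (0.89) and SAFB2 (0.88). For SCNN1G the first was FAM118A (0.91), for WT1 ME2 (0.88), for UMOD PIK3CG (0.90) and for AQP2 MN1 (0.78). With this many genes and 12 points that share groups and arrays, such values describe a ranking and carry no p.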
